A study of Arabidopsis thaliana with 12 samples.

Results

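The genes described here are the 89 that gave the strongest hybridisation signal among the features of a single named gene, on arrays of dark-adapted Arabidopsis thaliana plants. Of 3439 array features, 692 are annotated with exactly 1 gene. The members were chosen by mean deposited intensity over all 12 arrays, taking the first 100 of the 692. Of 16 genes to be set aside by name, several of them of the photosystems, 11 were among these 100 and 5 were not. Levels of the 89 that stayed are therefore given below as a description without a test. The difference between the genotypes was not used in the ranking. The removal of 11 genes was not blind to it, since 10 of them passed the test between genotypes described below.

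Total RNA was measured on 6 arrays of the laf6 mutant and 6 arrays of WT plants, both of ecotype landsberg and both dark adapted. The laf6 mutant lacks the transporter atABC1, per the labels. Every array is of dark-adapted material, so no effect of darkness itself can be read from the values. The labels leave out the tissue, the age of the plants, the length of the dark treatment and any pooling. They also do not say whether the 6 arrays of a group are of different plants, and the p-values then reflect array-to-array spread that may be technical.

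The atABC1 gene encodes a plastid protein that is now placed in the machinery for assembling iron-sulfur clusters, and laf6 was isolated as a mutant with a long hypocotyl in far-red light. In darkness, leaves stop fixing carbon, draw on stored starch and breathe amino acids and lipids, and nuclear transcripts for plastid proteins are adjusted by signals that include the state of the plastid. A strong signal on an array shows that a transcript was labelled and bound its feature well, and depends on the probe as well as on transcript number. Intensities of different genes are for this reason not set against each other as transcript levels, and the genes are called the brightest and not the most abundant.

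Deposited intensities have no absolute unit and ran from 0 to 100 on each array. The median feature stood at 0.178 to 0.202 on the laf6 arrays, against 0.218 to 0.289 on the WT arrays, and 491 to 674 features were listed at 0 on a laf6 array, against 447 to 540 on a WT array. Arrays of a group with adjacent replicate numbers (1 and 2, 3 and 4, 5 and 6) resembled each other over the 89 genes, and less clearly over other features. After scaling to the array median, the typical absolute log2 difference over 87 of the 89 genes was 0.14 between adjacent laf6 arrays, against 0.29 between other laf6 pairs, and 0.10 between adjacent WT arrays, against 0.24 between other WT pairs. Over 2105 other features it was 0.36 against 0.44 in laf6 and 0.21 against 0.31 in WT. Deviations from the group mean correlated at -0.165 to 0.111 between adjacent arrays over 2192 features. Other pairs had means of -0.237 in laf6 and -0.256 in WT. Over the 87 genes, adjacent correlations ran from -0.015 (laf6 arrays 1 and 2) to 0.829 (WT arrays 3 and 4). If adjacent arrays are repeats of the same plants there are 3 samples a group, so results are also given with adjacent arrays averaged. No feature of a single gene measured any of 18 markers of seed, root, flower or dark response, and the labelled state could not be checked against them.

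The 89 genes spanned mean intensities of 0.852 to 54.6. They are not the brightest features on the array as a whole, since AT4G22830 at the head of the list ranked 12th of all features and IAA31 at its end ranked 486th, the others above them having several genes, no gene entry or a name that was set aside. Together the 89 held 10.8 ± 0.432% of the summed intensity of a laf6 array and 13.9 ± 0.281% of that of a WT array (SD, n = 6 each). The shares ran from 10.3% to 11.4% over laf6 arrays and from 13.3% to 14.1% over WT arrays, and the groups did not overlap. The share rests on the arrays' totals, in which the 20 brightest features of any kind held 39.3% to 41.6% in laf6 and 29.7% to 31.6% in WT, and their part in the difference was not tested.

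**Figure D1:**
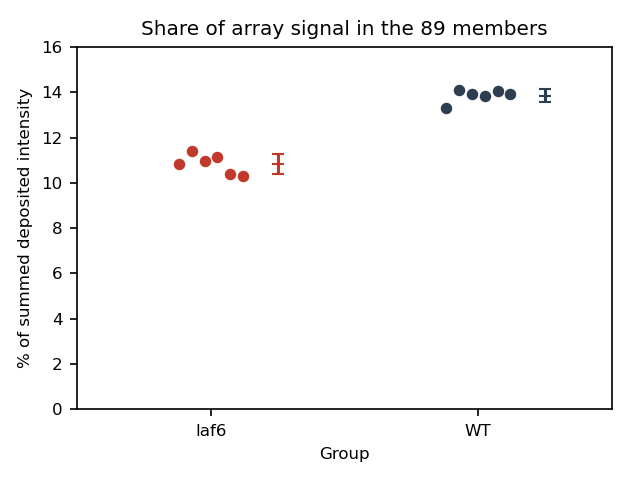
Share of the summed deposited intensity (per cent, vertical axis) held by the 89 genes on each array, with 1 point per array and the mean ± SD beside the points (n = 6 each). The laf6 arrays lie between 10.3% and 11.4%, and the WT arrays between 13.3% and 14.1%.

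Signal was present on all 12 arrays for 87 of the 89 genes. The exceptions were AT1G24240 and AT2G46300. On every one of the 12 arrays, 46 of the genes stood among the 100 brightest single-gene features. On the 6 laf6 arrays this held for 58 genes and on the 6 WT arrays for 66. Ranked on laf6 arrays alone, 79 of the 89 stayed within the first 100, and on WT arrays alone 81 did, with 71 in both. The order of the first genes differed between the genotypes: AT5G38360 stood 1st among single-gene features in laf6 and 6th in WT, AT4G22830 4th in laf6 and 2nd in WT, and AT4G31530 9th in laf6 and 4th in WT. The list is a mean over genotypes, and 10 of its genes fall out of the first 100 in laf6 while 8 fall out in WT. These 18 rank within the first 100 in 1 genotype only, and for all but AT2G37510 and AT3G32930 that genotype had the higher mean. Apart from those exceptions, the direction of their difference is therefore partly set by the choice. The tests of the 18 below are not independent of it. The 8 outside the first 100 in WT were AT2G37510, AT3G32930, AT3G47650, AT4G39570, AT5G11650, AT5G19540, CML41 and PRK. Of these, AT2G37510 and AT3G32930 had lower means in laf6 (0.751 and 0.840) than in WT (1.01 and 0.987). Only their ranks were better in laf6. AT4G39570 had the higher mean in laf6 through 1 array, and its median was 0.154 in laf6, against 0.319 in WT. The 10 outside it in laf6 were AT2G46300, AT3G06200, AT3G44570, AT3G50350, AT4G21170, AT4G21770, AT5G26850, AT5G62840, AT5G66090 and CUTA. At the edge of the list, AT4G27250, AT5G11650 and IAA31 had means of 0.878, 0.875 and 0.852 and were taken. AT5G17280, AT3G20150 and AT1G21500, with means of 0.847, 0.841 and 0.837, were not.

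Between the genotypes, 18 of the 89 genes were higher in laf6, 34 were lower and 37 did not pass the test (limma on log2 quantile-normalised intensities, adjusted p under 0.05 over all features). This is 58.4% of the genes called, where 26.2% of all 3439 features were called (12.4% higher, 13.8% lower). Of the 71 genes within the first 100 in both genotypes, 13 were higher, 25 were lower and 33 did not pass, which is 53.5% called. Of the 8 within it in laf6 alone 5 were higher and none lower, and of the 10 within it in WT alone 9 were lower and none higher. Of the 397 other features at least as bright as IAA31, which include the 11 set aside, 76.8% were called (33% higher, 43.8% lower). Standard errors had a median of 0.13 on the log2 scale over the 89 genes and 0.12 over those 397 features, against 0.32 over all features. The median log2 difference (laf6 minus WT) was -0.34 over the 89 genes, -0.26 over the 397 and -0.02 over all features. Differences of at least 2-fold (1 on the log2 scale) among called genes numbered 10 higher and 20 lower, which is 11.2% and 22.5% of the 89, where 7.47% and 5.61% of all features were called at that size. The normalised intensities of the genotypes did not overlap for 45 of the 89 genes, 17 higher and 28 lower, where 17.9% of all features did not overlap (8.52% higher, 9.36% lower). The deposited intensities did not overlap for 55 genes, 12 higher and 43 lower, where 22% of all features did not (4.97% higher, 17.1% lower). The counts at 2-fold and without overlap include genes within the first 100 of 1 genotype only, among them AT3G47650, CML41, AT3G06200 and AT3G44570. The direction of such genes is partly set by the choice, and these shares were not computed without them.

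The split between higher and lower depended on how arrays were scaled. On the values as deposited, the log2 difference of the median feature was -0.45, and 14 of the 89 genes were higher and 52 lower, against 7.33% and 26.3% of all features. Higher genes made up 34.6% of the called ones with quantile normalisation and 21.2% as deposited. Of the 18 higher genes 14 kept their call under the 4 other scalings tried, as did 31 of the 34 lower genes, and no called gene passed in the opposite direction under any of them. With adjacent arrays averaged to 3 samples a group, 14 genes were higher and 23 lower, which is 41.6% of the 89 where 15.8% of all features were called. With that averaging and the pair of numbers fitted as a block as well, none of the 89 and none of all 3439 features passed (limma, 50 of the 89 and 1036 of all features at an unadjusted p under 0.05). The smallest adjusted p of that limma fit was 0.0532, just over the threshold. With 3 averaged values a group and a block, few values are left to estimate the spread, so this loss of calls does not show that differences are absent.

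**Figure D2:**
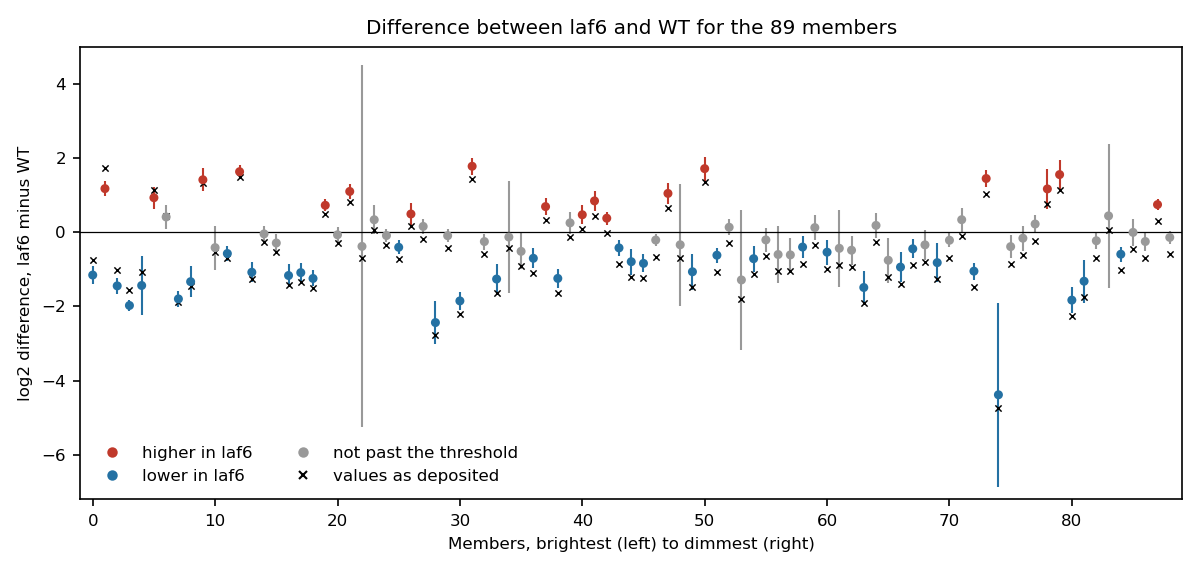
Log2 difference between laf6 and WT (vertical axis, laf6 minus WT) for the 89 genes in order of mean intensity (horizontal axis, brightest at left), with the 95% interval of the limma fit. Red and blue points are the 18 higher and 34 lower genes, grey points the 37 that did not pass, and crosses the difference before normalisation, whose median over all features was -0.45.

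Called genes were spread over the whole brightness range. Among ranks 1 to 25 there were 17 of the 89 genes, of which 4 were higher and 9 lower. Ranks 26 to 50 held 23 genes with 5 higher and 8 lower, ranks 51 to 75 held 25 with 5 higher and 9 lower, and ranks 76 to 100 held 24 with 4 higher and 8 lower. The median standard error was 0.11 for each of the first pair of bins and 0.15 for each of the others.

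Among the brightest genes, differences between the genotypes ran in either direction. AT4G22830, for which no role is given, had deposited intensities of 30.6 to 48.4 on the laf6 arrays (median 41.8), against 49.6 to 90.7 on the WT arrays (median 68.5). The groups did not overlap, and the log2 difference was -1.15 ± 0.11 (SE, adjusted p = 1.21e-05). Its size depended on the scaling, at -0.76 as deposited (adjusted p = 0.00751) and -0.36 with median scaling (adjusted p = 0.0980), where it did not pass. AT5G38360 went the other way, with 66.5 to 89.4 in laf6 (median 85.5), against 20.4 to 28.5 in WT (median 24.0). Every laf6 array was above every WT array by a wide gap, and the log2 difference was 1.18 ± 0.09 (adjusted p = 3.45e-06), 1.74 as deposited and 2.14 with median scaling. AT2G27290 had 30.4 to 34.7 in laf6 (median 33.6), against 60.4 to 74.5 in WT (median 67.5). Its laf6 arrays were close together and all lay below the WT arrays (log2 difference -1.45 ± 0.09, adjusted p = 6.85e-07, and -0.61 with median scaling, adjusted p = 0.00288).

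AT4G31530 encodes a protein of the NAD(P)-binding Rossmann-fold family and had the smallest standard error of the 89 genes, its normalised value being 61.3 on 5 of 6 WT arrays because quantile normalisation gives equal ranks equal values. Its deposited intensity was 13.9 to 17.6 in laf6 (median 17.1), against 41.7 to 52.4 in WT (median 49.5). No array of either group came near the other group, and the log2 difference was -1.98 ± 0.07 (adjusted p = 5.78e-09), -1.56 as deposited and -1.16 with median scaling. CCL, a clock-regulated transcript of short half-life, had 22.7 to 40.0 in laf6 (median 27.3), against 9.81 to 17.4 in WT (median 12.9). All laf6 arrays were above all WT arrays for CCL, and the log2 difference was 0.93 ± 0.14 (adjusted p = 0.000325). The labels give no time of day, which bears on the level of a clock-regulated transcript, and its part was not tested.

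Among the next genes in brightness, AT4G19900 of the alpha 1,4-glycosyltransferase family had 3.60 to 4.08 in laf6 (median 3.70), against 11.8 to 16.7 in WT (median 12.8). It fell by 1.80 ± 0.09 on the log2 scale (adjusted p = 2.07e-07) with no overlap of the groups. AT3G06570 had 8.44 to 9.24 in laf6 (median 8.75), against 2.45 to 3.75 in WT (median 3.35). The log2 difference was 1.64 ± 0.08 (adjusted p = 1.62e-07), and its laf6 arrays varied little, with an SD of 0.264 around a mean of 8.77. AT1G16080 changed less, with 4.53 to 5.46 in laf6 (median 5.06), against 6.46 to 9.32 in WT (median 8.31), a log2 difference of -0.57 ± 0.10 (adjusted p = 0.0009997). Other bright genes did not pass. AT5G50350 had 9.66 to 11.8 in laf6 and 5.27 to 10.97 in WT, AT3G52070 had 3.71 to 4.37 in laf6 and 3.41 to 5.82 in WT, and AT1G73120 had 3.84 to 6.22 in laf6 and 4.80 to 11.04 in WT. In each of them the groups overlapped, and the log2 differences were 0.41 ± 0.15 (adjusted p = 0.0691), -0.04 ± 0.09 (adjusted p = 0.795) and -0.41 ± 0.27 (adjusted p = 0.310). AT5G50350 passed with median scaling, at 0.85 (adjusted p = 0.00214), and with 75th percentile scaling, at 0.87 (adjusted p = 0.000773). It also passed with cyclic loess scaling, at 0.45 (adjusted p = 0.0344), and did not pass as deposited, at 0.45 (adjusted p = 0.0901).

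**Figure D3:**
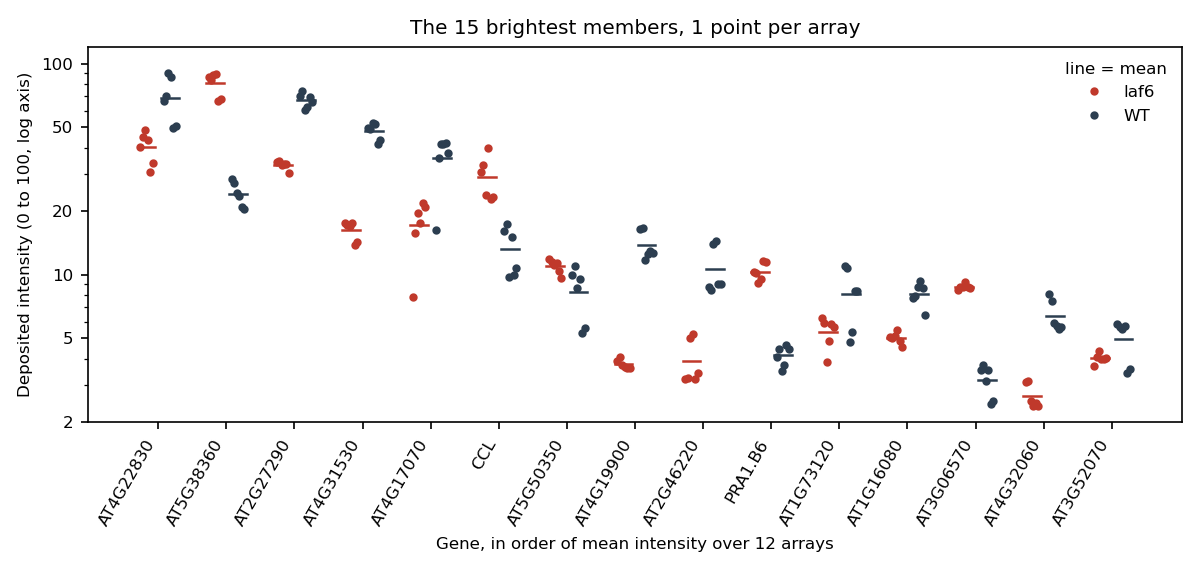
Deposited intensity (log axis, scale of 0 to 100) of the 15 brightest of the 89 genes, with 1 point per array and a line at the mean of each group (n = 6 each). AT5G38360, CCL, PRA1.B6 and AT3G06570 lie higher on every laf6 array than on any WT array. AT4G22830, AT2G27290, AT4G31530, AT4G19900, AT2G46220, AT1G16080 and AT4G32060 lie lower on every laf6 array than on any WT array.

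Known roles could be given to 59 of the 89 genes, and the groups below are counted over these. For comparison, 26.2% of all features were called, and 76.8% of the 397 other features at least as bright as IAA31. Counts in groups this small are a description and not a result about the role. Of 5 genes of transport and membrane trafficking, 1 was higher in laf6 and 4 were lower. PRA1.B6 encodes a prenylated Rab acceptor of vesicle traffic, and its intensity was 9.16 to 11.6 in laf6 (median 10.2), against 3.52 to 4.65 in WT (median 4.27). Its log2 difference was 1.42 ± 0.14 (adjusted p = 1.96e-05), without overlap. AT4G32060, for an EF-hand protein of mitochondrial calcium uptake, had 2.39 to 3.13 in laf6 (median 2.49), against 5.53 to 8.09 in WT (median 5.81), a log2 difference of -1.08 ± 0.12 (adjusted p = 5.21e-05). AT4G39690, for a protein that shapes the inner mitochondrial membrane, had 0.423 to 1.15 in laf6 (median 0.740), against 1.66 to 2.46 in WT (median 1.82). Its log2 difference was -1.07 ± 0.22 (adjusted p = 0.00391), and with adjacent arrays averaged it did not pass (adjusted p = 0.0740). With adjacent arrays averaged, 1 of the 5 was higher and 2 were lower.

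All 4 genes of amino acid, nucleotide and nitrogen metabolism passed, 2 in each direction. AT3G06200 encodes a guanylate kinase, which phosphorylates GMP, and is in the list only through WT (rank 127 in laf6, 26 in WT). It had 0.369 to 0.737 in laf6 (median 0.483), against 2.38 to 5.72 in WT (median 3.08). The log2 difference was -2.44 ± 0.27 (adjusted p = 3.87e-05), and every laf6 array was far below the lowest WT array. The argininosuccinate lyase gene AT5G10920, of the last step of arginine synthesis, had 0.569 to 1.07 in laf6 (median 0.799), against 1.44 to 2.19 in WT (median 1.71), a log2 difference of -0.71 ± 0.16 (adjusted p = 0.00584, and 0.0845 with adjacent arrays averaged). CYN, the cyanase that breaks down cyanate, had 1.41 to 2.32 in laf6 (median 1.61), against 0.863 to 1.32 in WT (median 1.09). Its laf6 arrays all lay above the WT arrays, by 1.05 ± 0.13 on the log2 scale (adjusted p = 0.000102). AT5G52810, of the ornithine cyclodeaminase family and active in pipecolic acid synthesis, had 3.88 to 4.54 in laf6 (median 4.33), against 2.47 to 3.65 in WT (median 3.12), a log2 difference of 0.73 ± 0.07 (adjusted p = 2.01e-05).

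Both genes of the Calvin cycle group were higher in laf6, and both are in the list only through the laf6 arrays, where they ranked 40th and 55th of the single-gene features, against 134th and 144th in WT. AT3G47650 encodes a zinc-finger chaperone for the assembly of Rubisco, the enzyme that fixes carbon dioxide. Its intensity was 1.61 to 2.39 in laf6 (median 1.81), against 0.569 to 0.965 in WT (median 0.758), with a log2 difference of 1.72 ± 0.15 (adjusted p = 5.62e-06) without overlap. PRK, the phosphoribulokinase that regenerates the carbon dioxide acceptor, had 0.760 to 1.92 in laf6 (median 1.04), against 0.499 to 0.896 in WT (median 0.627). Deposited values of PRK overlapped between the groups, and its call (log2 difference 1.17 ± 0.24, adjusted p = 0.00391) was lost with adjacent arrays averaged (adjusted p = 0.0695). The photosystem II repair protein PSB27 is the single member of a photosynthetic complex left in the list, and did not pass (-0.13 ± 0.69, adjusted p = 0.936). Its values turn on the replicate number and are given further on.

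Both redox proteins were lower in laf6. AT3G04650, of a family of FAD/NAD(P)-binding oxidoreductases, had 0.584 to 0.897 in laf6 (median 0.778), against 2.84 to 4.51 in WT (median 3.32). The groups stood far apart, with a log2 difference of -1.85 ± 0.11 (adjusted p = 3.20e-07). The FMN-binding protein gene AT3G03890 had 0.729 to 1.02 in laf6 (median 0.860), against 1.48 to 2.33 in WT (median 2.17), a log2 difference of -0.84 ± 0.11 (adjusted p = 0.000141). Both genes of protein folding and turnover were lower as well. XERICO, a RING-H2 protein known for raising abscisic acid levels, had 0.728 to 0.938 in laf6 (median 0.834), against 2.07 to 3.43 in WT (median 2.48). It fell by 1.24 ± 0.12 on the log2 scale (adjusted p = 1.08e-05) with no overlap.

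AT4G17070, of a family of peptidyl-prolyl isomerases that help proteins fold, had 7.84 to 21.8 in laf6 (median 18.6), against 16.4 to 42.2 in WT (median 39.6). In each genotype its lowest value was that of replicate 1, and the WT array of that number lay within the laf6 range. The log2 difference was -1.44 ± 0.37 (adjusted p = 0.0125). The call was lost with median scaling (-0.66, adjusted p = 0.134) and with adjacent arrays averaged (adjusted p = 0.0944), and it held without replicates 1 and 2 (-1.54, adjusted p = 0.000172).

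Of 5 genes for kinases, phosphatases and calcium signalling, 1 was higher and 4 were lower. The protein kinase gene AT5G40030 had 1.82 to 2.88 in laf6 (median 1.99), against 4.72 to 6.81 in WT (median 5.20), a log2 difference of -1.09 ± 0.12 (adjusted p = 3.15e-05). AT3G17550, of the haloacid dehalogenase-like phosphatases, had 1.01 to 1.32 in laf6 (median 1.09), against 1.69 to 2.93 in WT (median 2.80), with a log2 difference of -0.70 ± 0.12 (adjusted p = 0.00108, and 0.0588 with adjacent arrays averaged). CML41, a calmodulin-like calcium sensor that is in the list only through laf6 (rank 53 in laf6, 188 in WT), was the higher one, with 0.834 to 1.73 in laf6 (median 1.22), against 0.471 to 0.599 in WT (median 0.578). The groups did not overlap for CML41, with a log2 difference of 1.56 ± 0.18 (adjusted p = 5.53e-05). With adjacent arrays averaged, 1 of the 5 genes was higher and 2 were lower.

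Lipid and sugar metabolism had 8 genes, of which 2 were higher, 1 was lower and 5 did not pass. AT5G11650 is in the list only through laf6 (rank 66 in laf6, 129 in WT). AT5G62840 is in it only through WT (rank 107 in laf6, 75 in WT). AT5G11650, of the alpha/beta hydrolases, had 0.905 to 1.03 in laf6 (median 0.966), against 0.676 to 0.880 in WT (median 0.795), a log2 difference of 0.75 ± 0.07 (adjusted p = 1.16e-05) and 0.30 as deposited (adjusted p = 0.0186). AT2G38550, for a protein of fatty acid export from plastids, had 1.203 to 1.83 in laf6 and 1.37 to 1.57 in WT. Its deposited values overlapped, and its log2 difference of 0.38 ± 0.08 (adjusted p = 0.00414) stood at -0.03 as deposited (adjusted p = 0.884), so its direction depended on the scaling. AT5G62840, of the phosphoglycerate mutase family, had 0.388 to 0.874 in laf6 (median 0.574), against 1.17 to 1.74 in WT (median 1.44), a log2 difference of -0.82 ± 0.24 (adjusted p = 0.0253, and 0.189 with adjacent arrays averaged). As deposited, 1 of the 8 genes was higher and 5 were lower.

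Of 11 genes for RNA-binding and RNA-modifying proteins, 1 was higher, 2 were lower and 8 did not pass, a call rate near that of all features. AT4G21770, of the pseudouridine synthases that modify RNA, had 0.249 to 0.632 in laf6 (median 0.394), against 0.764 to 1.92 in WT (median 1.30), a log2 difference of -1.32 ± 0.27 (adjusted p = 0.00325, and 0.0781 with adjacent arrays averaged). The pentatricopeptide repeat gene AT4G21170, of a family that binds organelle RNA, had 0.533 to 0.718 in laf6 (median 0.555), against 1.06 to 1.37 in WT (median 1.12), and fell by 0.59 ± 0.09 on the log2 scale (adjusted p = 0.000499). AT5G11010, of the pre-mRNA cleavage complex family, had 1.61 to 2.96 in laf6 and 1.58 to 2.47 in WT, ranges that overlap over most of their length. Its log2 difference of 0.49 ± 0.13 (adjusted p = 0.0180) stood at 0.17 as deposited (adjusted p = 0.520). With adjacent arrays averaged none of the 11 was higher and 1 was lower, and as deposited none was higher and 6 were lower. AT4G21770 and AT4G21170 are in the list only through WT (ranks 165 and 115 in laf6, 77 and 85 in WT).

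Among 3 genes of transcription and chromatin 1 was lower. The histone H3 gene AT1G13370 had 0.713 to 1.24 in laf6 (median 0.896), against 2.36 to 4.40 in WT (median 2.44), a log2 difference of -1.26 ± 0.19 (adjusted p = 0.000380). IAA31, of the Aux/IAA repressors of auxin response, did not pass (-0.14 ± 0.08, adjusted p = 0.269), although its deposited values, 0.549 to 0.781 in laf6 and 0.817 to 1.18 in WT, did not overlap. The single cell wall gene, AT4G18180 of the pectin lyase-like family, had 1.70 to 2.08 in laf6 (median 1.91), against 4.48 to 6.77 in WT (median 5.52). It fell by 1.25 ± 0.10 on the log2 scale (adjusted p = 2.79e-06).

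**Figure D4:**
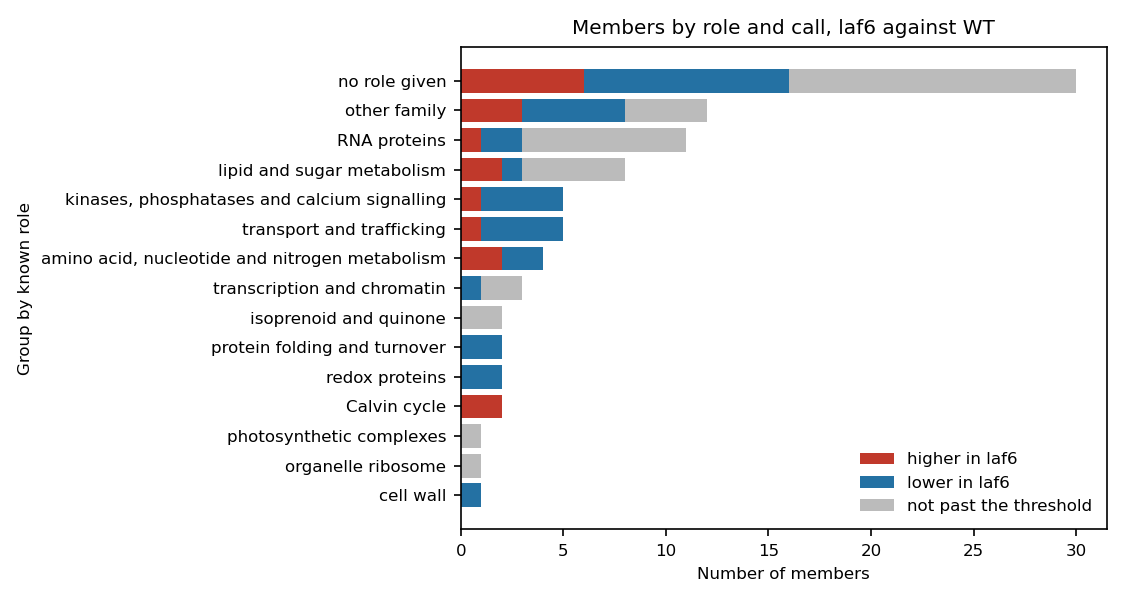
Number of genes (horizontal axis) in each group by known role (vertical axis), divided into those higher in laf6, those lower in laf6 and those not past the threshold. All genes passed in the groups of transport and trafficking, kinases and calcium signalling, and amino acid, nucleotide and nitrogen metabolism. The same held for redox proteins, protein folding and turnover, the Calvin cycle and the single cell wall gene. With adjacent arrays averaged, fewer passed in each of these groups except redox proteins and cell wall. Of 11 RNA protein genes, 8 did not pass. Over all features 26.2% were called, and over other features at least as bright 76.8%.

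Of the 30 genes with no role given, 6 were higher and 10 lower. AT1G32730 had the largest increase of the 89 with quantile normalisation (as deposited, AT5G38360 was above it, at 1.74 against 1.45), with 2.60 to 3.29 in laf6 (median 3.07), against 0.920 to 1.33 in WT (median 1.07), and a log2 difference of 1.78 ± 0.10 (adjusted p = 3.01e-07). AT5G19540, in the list only through laf6 (rank 51 in laf6, 155 in WT), had 1.23 to 1.41 in laf6 (median 1.31), against 0.560 to 0.726 in WT (median 0.630), a log2 difference of 1.45 ± 0.11 (adjusted p = 1.81e-06). Both were higher on every laf6 array than on any WT array. AT5G66780 had 1.48 to 2.17 in laf6 and 1.11 to 1.65 in WT, with a log2 difference of 0.85 ± 0.12 (adjusted p = 0.000322) although its deposited values overlapped. Among the lower ones, AT3G44570 and AT5G66090 are in the list only through WT (ranks 219 and 146 in laf6, 70 and 60 in WT). AT3G44570 had 0.180 to 0.398 in laf6 (median 0.334), against 1.35 to 1.58 in WT (median 1.49), a log2 difference of -1.83 ± 0.16 (adjusted p = 7.68e-06). AT5G66090 had 0.249 to 0.601 in laf6 (median 0.495), against 1.38 to 2.06 in WT (median 1.73), a log2 difference of -1.49 ± 0.20 (adjusted p = 0.000208). In the mixed group of 12 genes of other families, 3 were higher and 5 lower, among them the WD40 repeat gene AT3G09080, with 3.45 to 4.14 in laf6 (median 4.06), against 1.90 to 2.44 in WT (median 2.26) and a log2 difference of 1.10 ± 0.10 (adjusted p = 7.12e-06).

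AT2G46300, of the late embryogenesis abundant hydroxyproline-rich family, is in the list only through WT (rank 362 in laf6, 55 in WT). It was listed at 0 on 2 laf6 arrays and reached 0.376 on another, with a median of 0.136, against 1.51 to 2.11 in WT (median 1.72). Its fitted log2 difference of -4.39 ± 1.13 (adjusted p = 0.0132) depends on the floor of 0.00597 to which values of 0 were raised, and was -1.11 with an offset in place of the floor. Without replicates 1 and 2 it was -3.72 and did not pass (adjusted p = 0.113).

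Of the genes that missed the threshold, the 5 with the smallest standard errors were AT5G55570, AT2G19280, AT1G06730, IAA31 and AT1G24360. The 95% interval of the log2 difference was -0.37 to -0.05 for AT5G55570 (adjusted p = 0.0530) and -0.41 to -0.02 for AT1G24360 (adjusted p = 0.102), the plastid 3-oxoacyl-ACP reductase of fatty acid synthesis. It was -0.27 to 0.09 both for AT2G19280, a pentatricopeptide repeat gene, and for AT1G06730, of the pfkB carbohydrate kinases, and -0.32 to 0.04 for IAA31. The calls of these genes depended on the scaling. AT5G55570 passed with median scaling (-0.25, adjusted p = 0.0190) and 75th percentile scaling (-0.23, adjusted p = 0.0249), and AT1G24360 with 75th percentile scaling (-0.26, adjusted p = 0.0409). All 5 passed below 0 in the values as deposited, from -0.33 for AT2G19280 (adjusted p = 0.0199) to -0.68 for AT1G24360 (adjusted p = 0.00215), against -0.45 for the median feature.

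Within a genotype, the coefficient of variation of the deposited intensity had a median of 17.04% over the 89 genes in laf6 and 16.01% in WT. It was under 20% for 54 genes in laf6 and 65 in WT, and over 50% for 7 in laf6 and 4 in WT. For some genes the values followed the replicate number in the same way in both genotypes. AT2G46220 had 5.04 and 5.26 on the laf6 arrays 3 and 4 and 3.21 to 3.42 on the others, against 13.9 and 14.5 on the WT arrays 3 and 4 and 8.50 to 9.07 on the others. At every replicate number the laf6 value was the lower one, and the log2 difference was -1.33 ± 0.19 (adjusted p = 0.000283). AT1G73120 was lowest on arrays 3 and 4 in each genotype, at 3.84 and 4.83 in laf6 and 4.80 and 5.34 in WT. AT3G06200 reached 5.72 on both WT arrays 3 and 4, and its laf6 values were also highest there, at 0.737 and 0.691. Among the 87 genes with signal throughout, the pair of adjacent arrays with the highest mean was the same in laf6 and WT for 53 (60.9%) after median scaling, against 44.6% of the 2105 other features with signal on all arrays.

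A few genes owe their values, or their place in the list, to particular arrays. PSB27 had 0.680 and 0.659 on the laf6 arrays 1 and 2 and 1.23 to 2.72 on the others, against 0.589 and 0.369 on the WT arrays 1 and 2 and 3.03 to 3.93 on the others. Without replicates 1 and 2 its log2 difference was -0.70 (adjusted p = 0.0498). AT1G78620, for the phytyl phosphate kinase of tocopherol synthesis, had 0.441 and 0.159 on the laf6 arrays 1 and 2 and 1.12 to 1.32 on the others, against 1.07 to 1.58 over the WT arrays. It did not pass over all arrays (-0.43 ± 0.47, adjusted p = 0.551), and without replicates 1 and 2 it stood at 0.37 (adjusted p = 0.00904), in the opposite direction. AT1G24240, of the ribosomal protein L19 family, had 23.0 on the laf6 array 2 and 10.001 on the WT array 2, and at most 0.297 on the other laf6 arrays and 0.421 on the other WT arrays. It ranked 32nd of the single-gene features because of those arrays, and leaves the first 100 without them. AT4G39570, named because it was seen to rest on 1 array, had 7.90 on the laf6 array 1 and at most 0.336 on the other laf6 arrays, against 0.249 to 0.377 in WT, and leaves the first 100 without replicate 1. PRK likewise leaves the first 100 without replicate 2. AT4G21770 leaves it without replicate 3 and IAA31 without replicate 6, but neither rests on a single bright array. AT4G21770, at rank 93, had 0.632 and 0.577 on the laf6 arrays 3 and 4, and 1.92 and 1.77 on the WT arrays 3 and 4. IAA31 holds the last place, and its replicate 6 values (0.647 in laf6, 0.946 in WT) were below its group means (0.678 and 1.03). The cause of the high values on single arrays was not tested.

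**Figure D5:**
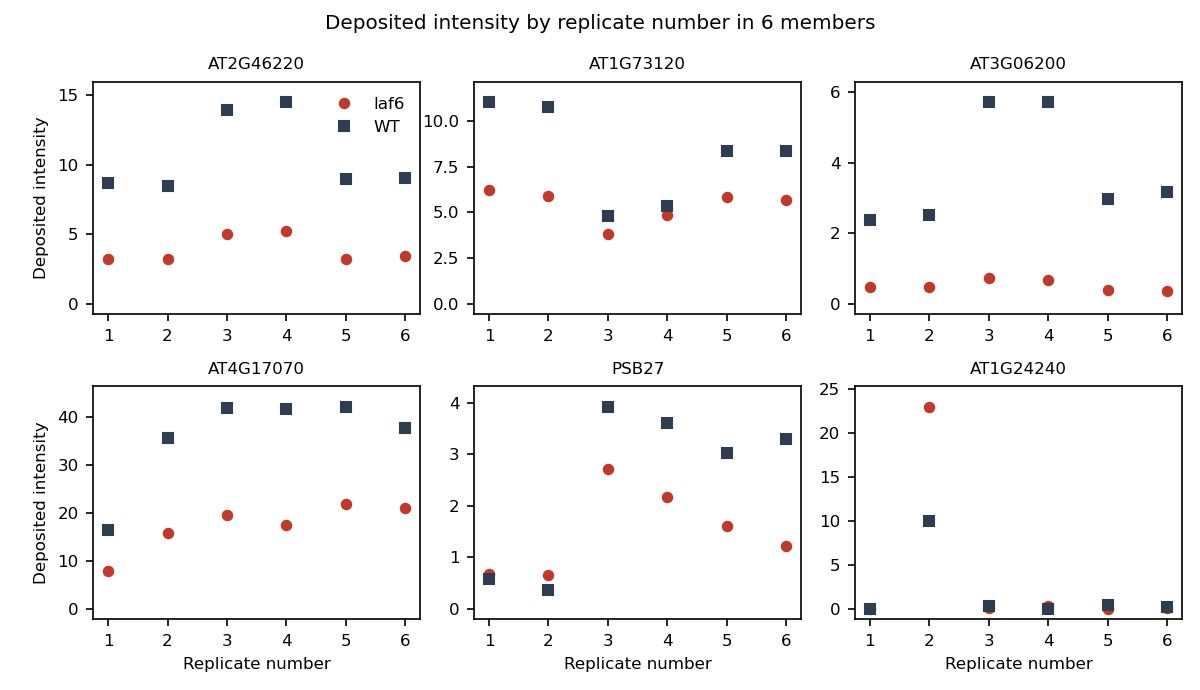
Deposited intensity (vertical axis) by replicate number (horizontal axis) in laf6 and WT for 6 of the 89 genes, 1 point per array. AT2G46220 and AT3G06200 are high on arrays 3 and 4 of both genotypes, AT1G73120 is low there, AT4G17070 is low on array 1, PSB27 is low on arrays 1 and 2, and AT1G24240 is bright on array 2 alone.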

How the data were processed

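Each array has 1 deposited intensity per feature, linear by its range; how the authors labelled, scanned, background-corrected and scaled the arrays is not stated in the labels. Groups and replicate numbers came from the titles. Names were read from GEO's platform annotation, which can be old, and updated through Entrez identifiers with RefSeq (TAIR10.1). It matched 690 of 692 single-gene features, among them all 89 described. It has a name other than the locus tag for 12 of the 89, so roles of the others are general knowledge of the locus and not from the table, and no role is given where it was not certain. Coordinates are left out because the array's genome build is not stated.

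Of all values 15.7% were 0. Intensities were quantile-normalised, raised to a floor of 0.00597 (percentile 1 of positive values) and converted to log2. All 3439 features were fitted with limma 3.58.1 in R 4.3.3 (lmFit, eBayes, no covariates), two-sided, with Benjamini-Hochberg adjustment over all features and a threshold of 0.05. The limma step was tested on simulated log2 values that were independent between arrays. The simulation left out normalisation, the floor and any likeness of adjacent or same-numbered arrays, so it does not vouch for the p-values where arrays are alike. The number of arrays limits the precision, and dim features lie close to the floor. The genes, role groups and tests were chosen with earlier results of these data known. Genes named are the 15 brightest, up to 12 of the largest changes in each direction, the 5 with the smallest standard errors among those not past the threshold, the 3 at the edge of the list, and up to 2 per role group and direction. Alternatives covered scaling, floor, filter, adjustment, replicate block, adjacent arrays, arrays left out, prior and weights.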

Additional observations from a re-analysis of the deposited data

Results flagged for a closer look

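In 7 of 108 groups of 6 arrays, formed by both genotypes and 54 genes (the 53 named by rule and AT4G39570, added after its values were seen), 1 array lay far from the other 5 in deposited intensity, where chance gives about 1 in 20. The count is close to that rate and is no test of it. AT4G39570 was added for its outlying array, and AT1G24240 is in the list only through its outlying arrays. AT1G24240 stood at 23.0 on the laf6 array of replicate 2 (others 0 to 0.297) and at 10.001 on the WT array of the same number (others 0 to 0.421). AT4G39570 stood at 7.90 on the laf6 array of replicate 1 (others 0.126 to 0.336). AT4G17070 stood at 16.4 on the WT array of replicate 1 (others 35.7 to 42.2). PRK stood at 1.92 on the laf6 array of replicate 2 (others 0.760 to 1.15). AT4G21170 stood at 0.718 on the laf6 array of replicate 3 (others 0.533 to 0.578), and AT2G27290 at 30.4 on the laf6 array of replicate 6 (others 33.2 to 34.7).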

How the results depend on the processing

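Of 1484 recomputed log2 differences of the 53 named genes, 1370 kept their direction and side of the threshold, 69 lost the call, 25 gained one and 20 turned. The count of 18 genes higher in laf6 was 18 to 19 with any 1 array left out, and the count of 34 lower genes was 32 to 37. As deposited, 52 genes were lower, and with adjacent arrays also averaged 9 were higher. With adjacent arrays averaged and their pair as a block, both counts were 0, as over all 3439 features (limma, 15 higher and 35 lower at an unadjusted p under 0.05, and 1036 of all features). The smallest adjusted p in that setting was 0.0532 (limma). These combined settings were chosen after seeing the data. With the replicate number as a block, 17 genes were higher and 36 lower, with 3 calls gained and 2 lost, where 25.4% of all features were called. Deviations of same-numbered laf6 and WT arrays correlated at 0.0947 to 0.223 over 2192 features, and at 0.251 to 0.654 over 87 of the 89 genes, and each laf6 array matched its own number best, a hint from the data and not from the labels. Arrays of different numbers across the genotypes correlated at a mean of -0.036 (-0.137 to 0.125) over the 2192 features. The main fit did not treat arrays as paired because 1 correlation over all features was under 0.1 and the labels name no pairing. These correlations do not exclude a pairing, and the counts with it fitted are those of the replicate block above. Among turned values, AT3G52070 stood at 0.14 with median and 0.16 with 75th percentile scaling and 0.074 without replicates 1 and 2. AT2G19280 stood at 0.071 and 0.095 with those scalings, AT1G06730 at 0.0054 and PSB27 at 0.000698 with the 75th percentile, AT1G24240 at 0.12 with an offset, AT2G38550 at -0.027 as deposited, averaged or not, and AT1G78620 at 0.37 without replicates 1 and 2. With 1 array left out, PSB27 ran from -0.60 to 0.0999 and AT1G24240 from -1.82 to 0.75. The causes were not tested. Repeats of 1 sample among adjacent arrays would make the p-values too small.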
